A study of Mus musculus with 8 samples.

Results

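The genes described here encode the respiratory chain and the ATP synthase of the inner mitochondrial membrane in mouse liver. They are all genes of the array annotation whose symbol begins with Nduf, Uqcr or Atp5, begins with Cox4, Cox5, Cox6, Cox7 or Cox8, or is Sdha, Sdhb, Sdhc or Sdhd. This name rule, which used no measured value, gave 84 of the 12393 genes measured by a probe set naming 1 gene. Sorted by symbol alone, they are 34 genes of complex I, 5 assembly factors of complex I (the Ndufaf genes), 4 genes of complex II, 8 of complex III, 16 of complex IV and 17 of complex V. Ndufa4 is counted in complex I by its name, although its protein is described as part of complex IV. Each gene was read from its brightest probe set over all arrays, 39 of them having 1 probe set and 45 having several.

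The 8 Affymetrix arrays were made from total liver RNA of C57BL mice on standard chow, with 2 arrays for each of 4 genotypes. Wild-type mice carried neither deletion, SHP-/- mice lacked SHP (small heterodimer partner, gene Nr0b2), OB-/- mice lacked leptin, and OB-/-/SHP-/- mice lacked both. SHP is a nuclear receptor that represses other nuclear receptors, and leptin is the fat-tissue hormone that restrains feeding, so that mice without it become obese with fatty livers. Age and sex are not given in the labels, and both losses are named as knockouts with no tissue or promoter, so liver effects and those of other organs cannot be told apart. Nothing says that a genotype's 2 arrays stem from different animals, and p-values then reflect only how far these samples spread, and that spread may be technical.

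The respiratory chain oxidises the NADH and FADH2 that come from burning fat, sugar and amino acids. Complexes I and II pass electrons through coenzyme Q to complex III, cytochrome c carries them to complex IV, which reduces oxygen, and complexes I, III and IV pump the protons whose return through complex V makes ATP. Most subunits are encoded in the nucleus and imported, while a few core subunits come from mitochondrial DNA, and the nuclear genes are known targets of the factors NRF1 and GABP and their coactivators of the PGC-1 family.

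Values are log2 levels, so a difference of 1 is a 2-fold change. Errors are limma's moderated standard errors (SE) for genotypes of 2 arrays each, and a gene passed the test at an adjusted p below 0.05 in limma with Benjamini-Hochberg adjustment over all 12393 genes. In bulk liver RNA, fewer cells of a type and less RNA per cell cannot be told apart.

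The series as a whole was checked in a few respects that touch these genes. Nr0b2 read 8.74 and 8.71 in wild-type, 7.78 and 8.31 in SHP-/-, against 8.01 and 8.01 in OB-/- livers and 7.11 and 6.66 in OB-/-/SHP-/-, so the probe set still gave signal in the mice labelled as lacking SHP. Whether it lies in the deleted part is not known here. The difference was -0.68 ± 0.19 in SHP-/- against wild-type (adjusted p = 0.286) and -1.13 ± 0.19 in OB-/-/SHP-/- relative to OB-/- (adjusted p = 0.0108). Lep lay between 3.16 and 3.53 on all 8 arrays, close to the bottom of the value range, and could not check the leptin loss. OB-/- replicate 1 stood apart in Xist, the transcript of the inactive X chromosome of females, at 7.41 against 4.31 to 4.70 on the other arrays. Eif2s3y, a gene of the Y chromosome, read 6.99 on that array, inside the range of the other arrays. The sex of that sample was not tested. SHP-/- replicate 1 stood apart in Fos, an immediate-early gene, at 11.95 against 5.17 to 6.98 on the other arrays, and the SHP-/- replicates differed by more than 2 log2 units at 17 genes, against 0 to 4 genes in the other genotypes, but at 0 of the 84 genes described here. The hepatocyte markers averaged 12.99 to 13.19 on every array.

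Across the 84 genes, OB-/- livers read slightly above the others and SHP-/- livers slightly below, by amounts that few single genes resolved. The median deviation of the 84 genes from each gene's own 8-array mean was 0.13 and 0.11 on the OB-/- arrays, 0.02 and -0.04 in wild-type, -0.01 and -0.03 in OB-/-/SHP-/-, and -0.07 and -0.10 in SHP-/-. Both OB-/- arrays lay above all others and both SHP-/- arrays below all others, while wild-type and OB-/-/SHP-/- overlapped. OB-/- held the highest mean for 57 of the 84 genes (67.9%, against 25.7% of all genes), and SHP-/- the lowest for 42 (50%, against 27.3%). Of the 84 genes, 55 spanned less than 0.5 over all 8 arrays and 82 less than 1, the exceptions being Cox6b2 and Ndufs5. Such spans were not counted over all genes. In all, 10 of the 84 passed the test in at least 1 of 5 comparisons and 74 in none. That share was not counted over all genes. In single comparisons 0.323% (SHP-/- minus wild-type) to 16.9% (OB-/- minus wild-type) of all genes passed.

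**Figure D1:**
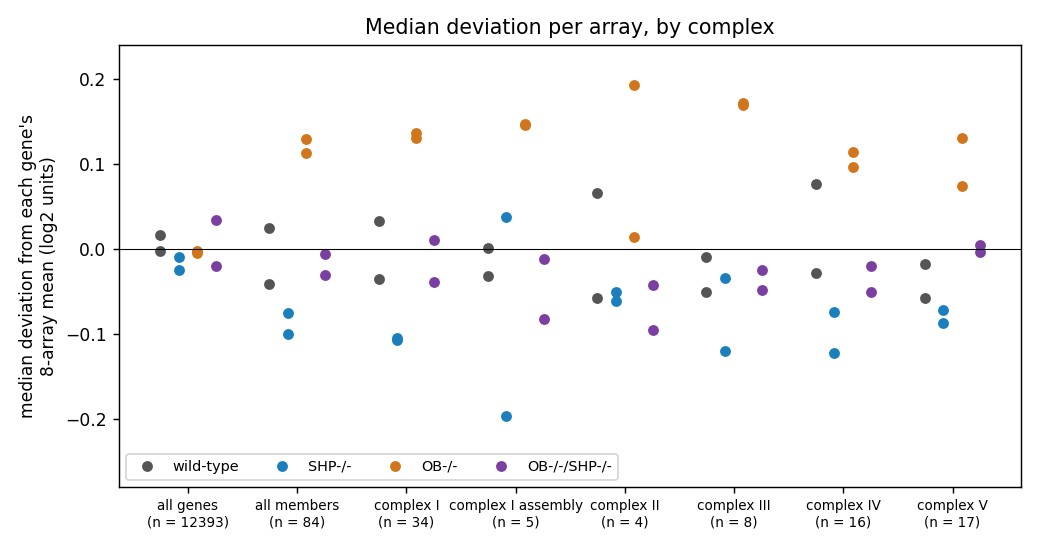
Each point is 1 array, and the vertical axis is the median, over the genes of a group, of the deviation from each gene's 8-array mean in log2 units. Colours mark the genotype and groups run from all 12393 genes to complex V. In the 84 genes together the OB-/- arrays are at 0.13 and 0.11 and the SHP-/- arrays at -0.07 and -0.10, while all 8 arrays lie near 0 over all genes.

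Start-site upstream sequence is shown for 4 genes on which the results turn: Cox6b2, with the largest difference; Ndufab1 and Ndufb8, past the test in both leptin comparisons with all arrays in the fit (for Ndufb8 where SHP was absent, in no fit with an array left out); and Ndufs5, the gene past the test between OB-/-/SHP-/- and OB-/-. The 250 bases before the RefSeq gene start (GRCm38.p6) are given 5′ to 3′ on the gene's strand, which is the minus strand for all 4, and capitals mark a match on either strand to GGGCGG (Sp1) or to GCGC, any base and TGCGC in a row (NRF1). They lie at chr7:4753095-4753344 for Cox6b2, chr7:122101849-122102098 for Ndufab1, chr19:44555443-44555692 for Ndufb8 and chr4:123718187-123718436 for Ndufs5.
Cox6b2: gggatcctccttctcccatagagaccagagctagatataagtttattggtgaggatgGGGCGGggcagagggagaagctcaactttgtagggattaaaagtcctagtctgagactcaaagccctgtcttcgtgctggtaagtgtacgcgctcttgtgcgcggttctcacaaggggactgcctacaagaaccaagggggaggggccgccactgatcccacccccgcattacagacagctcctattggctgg
Ndufab1: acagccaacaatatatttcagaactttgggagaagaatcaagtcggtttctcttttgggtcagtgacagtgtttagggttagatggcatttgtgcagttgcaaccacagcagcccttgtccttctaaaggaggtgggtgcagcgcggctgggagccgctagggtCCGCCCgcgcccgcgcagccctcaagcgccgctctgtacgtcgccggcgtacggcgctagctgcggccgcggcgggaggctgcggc
Ndufb8: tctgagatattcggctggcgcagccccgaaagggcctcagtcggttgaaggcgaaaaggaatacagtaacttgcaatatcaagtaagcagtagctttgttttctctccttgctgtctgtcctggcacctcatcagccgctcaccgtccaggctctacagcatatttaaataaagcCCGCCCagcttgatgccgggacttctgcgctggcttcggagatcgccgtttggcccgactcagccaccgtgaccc
Ndufs5: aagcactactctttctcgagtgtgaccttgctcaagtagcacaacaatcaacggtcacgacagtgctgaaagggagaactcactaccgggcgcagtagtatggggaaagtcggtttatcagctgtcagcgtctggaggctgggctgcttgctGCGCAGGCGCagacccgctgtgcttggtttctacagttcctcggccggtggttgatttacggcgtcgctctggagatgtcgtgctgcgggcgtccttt
In these windows the Sp1 letters stand in Cox6b2, Ndufab1 and Ndufb8 and the NRF1 letters in Ndufs5. RefSeq held a promoter for 70 of the 84 genes. The NRF1 letters occurred in 10 of the 70 (14.3%), namely Ndufa5, Ndufa8, Ndufs5, Ndufaf4, Sdha, Sdhd, Cox6a1, Atp5g2, Atp5h and Atp5k, against 6.93% of 9887 promoters of genes on the array and 3.86% of all 27025 promoters in the table. The GABP letters CCGGAAGT occurred in 3 (4.29%, against 4.84% and 2.93%), the Sp1 letters in 27 (38.6%, against 53.2% and 32.9%) and TATAAA in 6 (8.57%, against 9.14% and 13.0%). Each motif was searched on both strands, and the letters of different motifs can share bases. A match describes the letters in the window and was not tied to any level measured here.

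The effect of leptin loss was read from OB-/- minus wild-type, where SHP was present. Of the 84 genes, 6 rose and 1 fell (8.33%), against 16.9% of all genes called in either direction, 7.58% up and 9.36% down. All 6 that rose encode complex I subunits, which is 6 of 34 in that complex, and the gene that fell was Cox6b2 of complex IV. The median difference over the 84 genes was 0.12, against -0.01 over all genes, and 66 of the 84 were higher in OB-/- (78.6%, against 48.8% of all genes). The 95% confidence interval lay within 2-fold either way for 83 of the 84, all but Cox6b2, against 87.9% of all genes.

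Markers of RNA quality and of other cells moved in the same comparison. The 3′ probe set of Gapdh exceeded its 5′ probe set by 0.90 in the wild-type mean, 0.27 in that of SHP-/-, -0.04 for OB-/- and 0.07 for the double knockout OB-/-/SHP-/-, and the offset of Actb was 1.88, 1.30, 0.83 and 0.86. Macrophage markers averaged 6.36 to 6.49 in wild-type, 6.90 to 7.68 in SHP-/-, 7.78 to 7.89 in OB-/- and 7.81 to 8.04 in OB-/-/SHP-/-, with 9 of 10 past the test in OB-/- minus wild-type. Pancreas acinar markers averaged 4.47 to 4.51 in wild-type and 6.05 to 6.57 in OB-/- (5 of 6 up and 1 down), and fat cell markers 4.74 to 4.84 and 5.90 to 5.95 (2 of 6 up). The fat cell average mostly followed Cidea, at 6.40, and the other gene called was Retn, at 0.63. Elovl3 was the 1 fat cell marker below 0, at -0.52, and Adipoq stayed between 2.785 and 3.065 on all arrays. Of 10 muscle markers 8 were below 0 and 2 of them passed the test, over an average of 3.82 to 4.24 on all arrays. Of 7 hepatocyte markers 4 were below 0 and 1 of them passed (Cps1, -0.51), and of 3 red cell markers none was called. The part of these shifts in the differences of the 84 genes was not tested.

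Within complex I, the entry point of NADH electrons, the largest rise was that of Ndufs8, an iron-sulfur core subunit of the arm that reaches into the matrix. It read 10.69 and 10.50 in wild-type, 10.62 and 10.71 in SHP-/-, against 11.37 and 11.13 in OB-/- livers and 11.05 and 11.21 in OB-/-/SHP-/-. Both genotypes without leptin lay above both with leptin, without overlap. Ndufs8 was 0.65 ± 0.15 higher in OB-/- than in wild-type (1.57-fold, adjusted p = 0.0116) and 0.46 ± 0.15 higher in OB-/-/SHP-/- than in SHP-/- (adjusted p = 0.0694). Its 5 other probe sets gave 0.06 to 0.44 for OB-/- minus wild-type, and the 2 that were nearly as bright gave 0.06 and 0.08. With the mean of its probe sets the difference was 0.30 (adjusted p = 0.0923).

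Ndufa10, an accessory subunit, and Ndufs4, an accessory subunit needed for a stable complex, followed the same order. Ndufa10 read 10.39 and 10.29 in wild-type, 10.51 and 10.56 in SHP-/-, against 10.97 and 10.83 in OB-/- livers and 10.76 and 10.78 in OB-/-/SHP-/-. Ndufs4 read 9.48 and 9.33, 9.48 and 9.52, 9.93 and 9.92, and 9.73 and 9.84 in the same genotypes. In each gene the 4 arrays without leptin lay above the 4 with it. OB-/- minus wild-type was 0.55 ± 0.13 for Ndufa10 (adjusted p = 0.0142) and 0.52 ± 0.13 for Ndufs4 (adjusted p = 0.0196), while OB-/-/SHP-/- minus SHP-/- was 0.24 ± 0.13 (adjusted p = 0.282) and 0.28 ± 0.13 (adjusted p = 0.204). With the mean of the probe sets, OB-/- minus wild-type was 0.31 for Ndufa10 (adjusted p = 0.107) and 0.27 for Ndufs4 (adjusted p = 0.123).

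Ndufb8 is an accessory subunit of the membrane arm, whose protein is often used as a marker of assembled complex I. It read 11.06 and 11.06 in wild-type, 10.95 and 10.88 in SHP-/-, against 11.51 and 11.58 in OB-/- livers and 11.40 and 11.33 in OB-/-/SHP-/-. The genotypes followed each other with no overlap of their arrays. It rose by 0.49 ± 0.13 with leptin loss where SHP was present (1.40-fold, adjusted p = 0.0229) and by 0.45 ± 0.13 where SHP was absent (1.37-fold, adjusted p = 0.0447). The second of these calls was kept in 6 of 19 alternatives: it was lost without any single array, with equal array medians, with every probe set tested, with only the 4 arrays compared, with the replicate block and without the 2 arrays described above as standing apart (adjusted p up to 0.191).

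Ndufab1 is the mitochondrial acyl carrier protein, which serves fatty acid synthesis in mitochondria as well as complex I. It read 10.66 and 10.60 in wild-type, 10.51 and 10.51 in SHP-/-, against 11.21 and 10.98 in OB-/- livers and 11.06 and 11.21 in OB-/-/SHP-/-. The 4 arrays without leptin lay above the 4 with it. The difference was 0.46 ± 0.14 in OB-/- relative to wild-type (adjusted p = 0.0389) and 0.62 ± 0.14 in OB-/-/SHP-/- against SHP-/- (adjusted p = 0.016). The call rests on 1 probe set whose suffix, s_at, marks probes shared with other transcripts. Its dimmer probe sets gave -0.36 and -0.42 in OB-/- minus wild-type (adjusted p = 0.152 and 0.119), so the direction turned with the probe set. A further probe set, named for Ndufab1 and Ndufab1-ps together, gave 0.21 (adjusted p = 0.41).

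Ndufa7, a small accessory subunit, was the last of the 6. It read 10.95 and 11.04 in wild-type, 11.20 and 11.07 in SHP-/-, against 11.32 and 11.58 in OB-/- livers and 11.36 and 11.30 in OB-/-/SHP-/-. Arrays without leptin were again the 4 highest. The rise in OB-/- against wild-type was 0.45 ± 0.14 (adjusted p = 0.0487), at the edge of the threshold. The call was kept in 4 of 19 alternatives, and it was lost without any single array (adjusted p up to 0.297), with quantile normalisation (adjusted p = 0.0917), with equal array medians (adjusted p = 0.073) and with the replicate block (adjusted p = 0.0584). Of its 4 other probe sets, 3 gave 0.38 to 0.60 and the dimmest gave 0.05.

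These 6 calls rested on few arrays. The 6 genes were named for passing without overlap of OB-/- and wild-type arrays, so that part of their separation came with the choice. The number of genes that rose in OB-/- minus wild-type was 0 without wild-type replicate 2 or without OB-/- replicate 1, 1 without wild-type replicate 1, 2 without OB-/- replicate 2 and 5 without any 1 of the other arrays. Without the 2 arrays named above as standing apart (replicate 1 of OB-/- and of SHP-/-, called both arrays in doubt from here on), it was 0, although the differences of the 6 genes remained between 0.35 and 0.58. Of other catalytic and core genes of complex I, Ndufv1, which binds NADH, was at -0.05 ± 0.14 (adjusted p = 0.867), Ndufs1, the largest subunit, at -0.07 ± 0.16 (adjusted p = 0.835), Ndufv2 at 0.06 ± 0.13 (adjusted p = 0.815) and Ndufs3 at 0.04 ± 0.13 (adjusted p = 0.879). Ndufs7, the iron-sulfur subunit next to the coenzyme Q site, was at -0.33 ± 0.15 (adjusted p = 0.166).

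**Figure D2:**
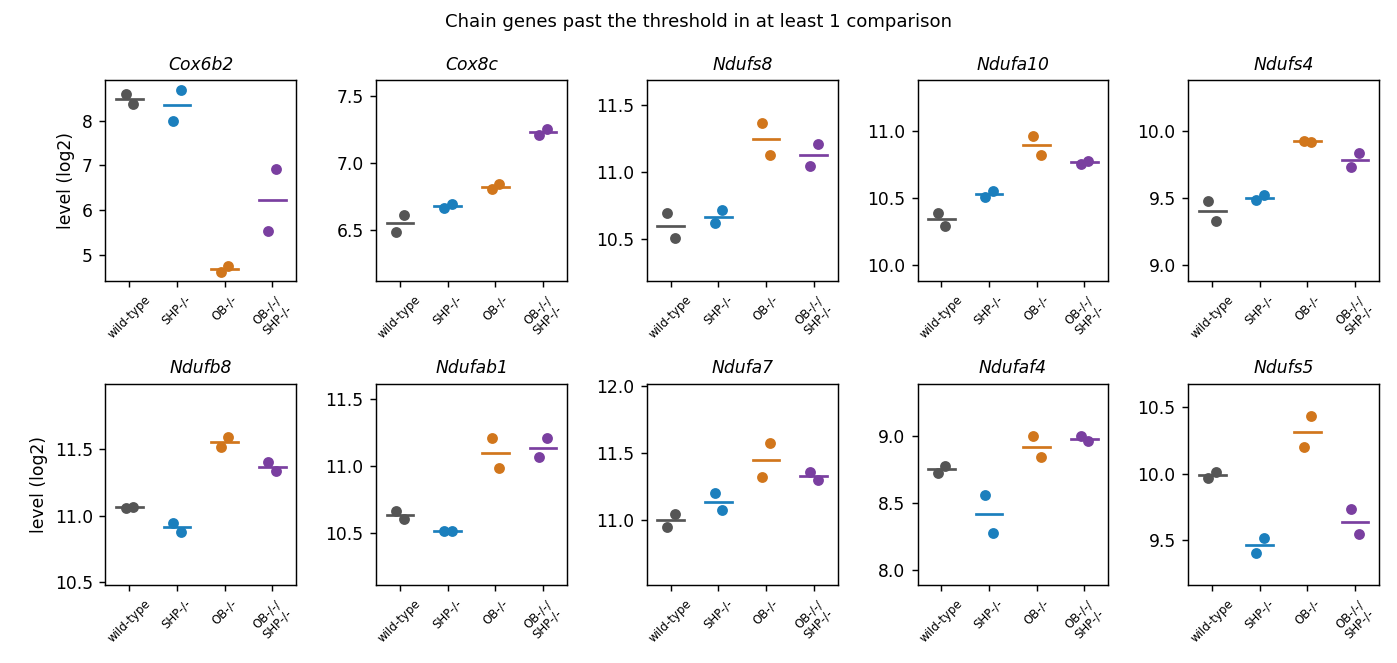
Points are the log2 levels on single arrays and bars the genotype means, for the 10 genes past the threshold in at least 1 comparison. Vertical axes do not start at 0 and differ between panels. In Ndufs8, Ndufa10, Ndufs4, Ndufb8, Ndufab1 and Ndufa7 all arrays without leptin lie above all arrays with it, and Cox6b2 is the widest panel, from 8.70 down to 4.62. Over all genes, arrays do not overlap for 57.5% in OB-/- against wild-type and 53.9% in OB-/-/SHP-/- against SHP-/-. Separation of all arrays without leptin from all with it was not counted over all genes.

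Complex II, which feeds electrons from succinate and is also an enzyme of the tricarboxylic acid cycle, had no call in any comparison. OB-/- minus wild-type was 0.22 ± 0.16 for Sdha, the flavoprotein with the catalytic site (adjusted p = 0.392), 0.10 ± 0.15 for the iron-sulfur subunit Sdhb (adjusted p = 0.711), -0.04 ± 0.14 for the membrane anchor Sdhc (adjusted p = 0.875) and 0.17 ± 0.14 for the other anchor, Sdhd (adjusted p = 0.482).

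Complex III passes electrons from coenzyme Q to cytochrome c, and none of its 8 genes passed the test in any comparison. Its median deviation was 0.17 on both OB-/- arrays and between -0.12 and -0.01 on the other 6. In OB-/- minus wild-type the arrays of 8 of 8 genes did not overlap (57.5% of all genes), with 7 higher and a median difference of 0.24. Uqcr11 was at 0.32 ± 0.13 (adjusted p = 0.127), the core protein genes Uqcrc1 and Uqcrc2 at 0.30 ± 0.13 (adjusted p = 0.163) and 0.32 ± 0.15 (adjusted p = 0.191), and Uqcr10 at 0.29 ± 0.13 (adjusted p = 0.172). The exception was Uqcrh, the hinge protein beside cytochrome c1, which read 10.84 and 10.86 in wild-type, 10.72 and 10.77 in SHP-/-, against 10.57 and 10.64 in OB-/- livers and 10.54 and 10.16 in OB-/-/SHP-/-. Each step down that series was without overlap, yet OB-/- minus wild-type was -0.25 ± 0.15 (adjusted p = 0.311) and OB-/-/SHP-/- minus SHP-/- was -0.40 ± 0.15 (adjusted p = 0.12).

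In complex IV, cytochrome c oxidase, Cox6b2 gave the largest difference of all 84 genes. Cox6b2 encodes the testis form of subunit 6B, which faces the space between the membranes, and its widely expressed counterpart is Cox6b1. It read 8.59 and 8.38 in wild-type, 7.98 and 8.70 in SHP-/-, against 4.62 and 4.75 in OB-/- livers and 5.54 and 6.91 in OB-/-/SHP-/-. All arrays without leptin lay below all with it, OB-/-/SHP-/- lay above OB-/-, and wild-type and SHP-/- overlapped. Cox6b2 fell by 3.80 ± 0.35 in OB-/- relative to wild-type (13.9-fold, adjusted p = 4.78e-05) and its difference in OB-/-/SHP-/- relative to SHP-/- was -2.12 ± 0.35 (4.34-fold, adjusted p = 0.00386). Both calls were kept in all 19 alternatives run, among them each array left out in turn, but the second difference was -1.43 without OB-/-/SHP-/- replicate 1 and -2.80 without OB-/-/SHP-/- replicate 2. Cox6b1 read 12.07 to 12.31 on all 8 arrays and differed by -0.10 ± 0.14 in OB-/- relative to wild-type (adjusted p = 0.704).

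Cox6b2 was measured by 1 probe set, so no second one could check it. Of its neighbours in RefSeq, Fam71e2, 131 bases away, was not analysed here, and Kmt5c, a histone methyltransferase gene 4277 bases away, was at -0.70 in OB-/- minus wild-type (adjusted p = 0.0225).

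The other isoform groups of complex IV had no call in OB-/- minus wild-type. Among genes of the common forms, Cox4i1 was at 0.00 ± 0.13 (adjusted p = 0.995), Cox6a1 at 0.20 ± 0.13 (adjusted p = 0.349), Cox7a2 at 0.24 ± 0.14 (adjusted p = 0.301) and Cox8a at 0.24 ± 0.13 (adjusted p = 0.233). Cox7a2l, linked to the joining of complexes III and IV, was at -0.09 ± 0.14 (adjusted p = 0.729), and Cox5a at 0.29 ± 0.13 (adjusted p = 0.187). The lung form Cox4i2 and the heart and muscle forms Cox6a2, Cox7a1 and Cox8b read between 3.62 and 5.77 on all arrays, and their differences were between -0.01 and 0.11. Cox4i2, Cox8b and Cox7c were below 4.83, the 40th percentile of probe set means, on every array. Cox7c is a common subunit, and its brightest probe set naming 1 gene read 3.33 to 3.87, near the low end of the table.

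Complex V, the ATP synthase, had no call in any comparison, with a median difference of 0.12 and 14 of 17 genes higher in OB-/- than in wild-type. The largest was Atp5l, subunit g of the membrane part, which read 10.58 and 10.69 in wild-type, 10.77 and 10.57 in SHP-/-, against 11.24 and 10.90 in OB-/- livers and 11.01 and 10.96 in OB-/-/SHP-/-. Arrays without leptin lay above those with it, and the difference of 0.44 ± 0.15 had an adjusted p of 0.0747. Atp5a1 and Atp5b, the alpha and beta subunits of the catalytic head, were at 0.25 ± 0.13 (adjusted p = 0.243) and 0.18 ± 0.13 (adjusted p = 0.405).

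Subunit c, the rotor ring of the synthase, is encoded by 3 genes with the same mature protein. Atp5g1 read 10.97 and 10.91 in wild-type, 10.90 and 10.88 in SHP-/-, against 11.29 and 11.24 in OB-/- livers and 11.16 and 11.31 in OB-/-/SHP-/-, with no overlap between mice with and without leptin. It differed by 0.33 ± 0.13 in OB-/- relative to wild-type (adjusted p = 0.117) and by 0.34 ± 0.13 in OB-/-/SHP-/- against SHP-/- (adjusted p = 0.12). Atp5g3 was at 0.22 ± 0.13 (adjusted p = 0.299) and Atp5g2 at -0.22 ± 0.14 (adjusted p = 0.342) in OB-/- against wild-type.

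**Figure D3:**
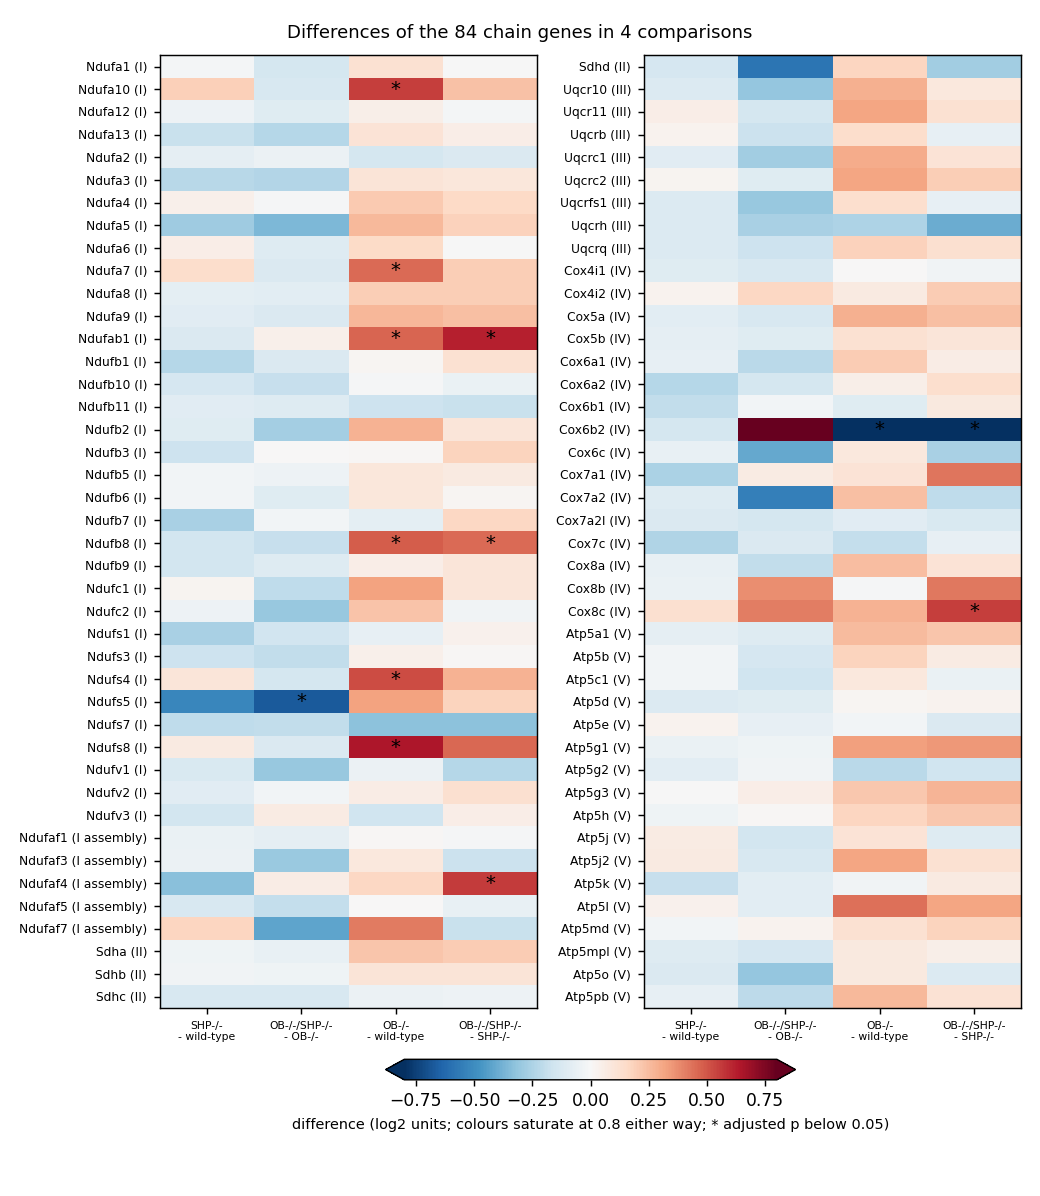
Each row is 1 of the 84 genes with its complex, each column a comparison, and colour the difference in log2 units, with red higher in the first-named genotype. Colours saturate at 0.8 either way, which Cox6b2 exceeds at -3.80, -2.12 and 1.54, and an asterisk marks an adjusted p below 0.05. The asterisks are 7 in OB-/- minus wild-type, 5 in OB-/-/SHP-/- minus SHP-/-, 1 in OB-/-/SHP-/- minus OB-/- and 0 in SHP-/- minus wild-type.

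Leptin loss where SHP was absent, OB-/-/SHP-/- minus SHP-/-, gave 4 rises and 1 fall among the 84 genes (5.95%, against 10.6% of all genes called, 4.95% up and 5.62% down). The median difference was 0.09, against 0.03 over all genes, and 55 of the 84 were higher (65.5%, against 54.6% of all genes). Without OB-/-/SHP-/- replicate 1 that median was 0.04, against 0.06 over all genes. With equal array medians it was 0.05, but the median over all genes then moves by the same amount, so the gap between them is unchanged. Besides Ndufb8, Ndufab1 and the fall of Cox6b2, already given, the calls were Cox8c and Ndufaf4. Cox8c, the testis form of subunit 8, read 6.49 and 6.62 in wild-type, 6.67 and 6.70 in SHP-/-, against 6.81 and 6.84 in OB-/- livers and 7.21 and 7.25 in OB-/-/SHP-/-. The 4 genotypes followed each other without overlap, and the rise against SHP-/- was 0.55 ± 0.13 (1.47-fold, adjusted p = 0.0204). Ndufaf4 is an early assembly factor of complex I, and it read 8.73 and 8.78, 8.56 and 8.28, 9.00 and 8.85, and 9.00 and 8.96 in the same order. SHP-/- was the lowest genotype and the 2 genotypes without leptin overlapped. Its rise was 0.56 ± 0.14 (adjusted p = 0.0302), but its other, dimmer probe set gave -0.69 ± 0.31 (adjusted p = 0.211) and the mean of both -0.07 (adjusted p = 0.878).

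The rises in this comparison were also few-array calls. Their number was 0 without SHP-/- replicate 2, without OB-/-/SHP-/- replicate 2 or without both arrays in doubt, 1 without SHP-/- replicate 1, and 3 or 4 without any 1 of the others. Fitted to its own 4 arrays, the comparison kept 0 rises. In complex III the median difference was 0.10 with 5 of 8 genes higher, and in complex V 0.07 with 12 of 17 higher, none called. Of the markers of other cells, 2 of 10 macrophage genes rose here (C1qa by 0.98 and C1qb by 1.28), as did 2 of 6 fat cell genes (Cidea by 2.23 and Retn by 1.01). Of 6 pancreas acinar genes 2 rose (Clps by 1.36 and Prss2 by 0.82) and Cela1 fell by 0.94, and of 3 red cell genes Alas2 fell by 0.73. No muscle or hepatocyte marker was called. The 3′ offset was lower in OB-/-/SHP-/- than in SHP-/- (Gapdh 0.07 against 0.27, Actb 0.86 against 1.30). The part of these shifts in the differences of the 84 genes was not tested.

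Loss of SHP where leptin was present, SHP-/- minus wild-type, gave 0 calls among the 84 genes in limma (0.323% of all genes), with 2 lower and 0 higher at an unadjusted p below 0.05, against 3.47% and 3.65% of all genes. The median difference was -0.08, against -0.03 over all genes, and without wild-type replicate 1 it was -0.04. Of the 84 genes, 67 were lower and 17 higher (20.2% higher, against 43.5% of all genes). All 84 confidence intervals lay within 2-fold either way, against 97.4% of all genes. The 2 genes at an unadjusted p below 0.05 were Ndufs5 at -0.52 ± 0.14 (adjusted p = 0.252) and Ndufaf4 at -0.33 ± 0.14 (adjusted p = 0.661). The 4 genes of complex II were at -0.03 to -0.13, and those of complex III at -0.11 to 0.05. The number called was 0 in every alternative run. Of the 6 marker lists, 1 muscle gene of 10 passed, Acta1 at -1.01 (adjusted p = 0.0383). No macrophage marker passed, with 10 of 10 above 0 and a median difference of 0.84. The 3′ offset was also lower in SHP-/- than in wild-type (Gapdh 0.27 against 0.90, Actb 1.30 against 1.88). The part of any of these shifts in the differences of the 84 genes was not tested.

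Loss of SHP in mice without leptin, OB-/-/SHP-/- minus OB-/-, gave 1 fall and 0 rises (1.19%, against 2.14% of all genes, 0.88% down and 1.26% up). The median difference was -0.13, against 0.01 over all genes, and 72 of the 84 were lower in OB-/-/SHP-/-. The other 12 were higher (14.3%, against 52% of all genes). This comparison shares the OB-/- arrays with OB-/- minus wild-type, so an OB-/- array that reads high raises one and lowers the other. Markers of other cells moved here too. Pancreas acinar markers averaged 4.78 to 4.86 in OB-/-/SHP-/- against 6.05 to 6.57 in OB-/-, with 3 of 6 lower and 0 higher past the test. Fat cell markers averaged 5.17 to 5.24 against 5.90 to 5.95. Of these 6, 3 were below 0 and 3 above, and 1 passed the test, Cidea at -4.52 (adjusted p = 3.41e-07). Of 3 red cell markers 1 passed, Alas2 at -0.90 (adjusted p = 0.0155). Of 10 macrophage markers 4 were above 0 and 6 below, and 1 passed, Marco, which was higher (3.03-fold, adjusted p = 0.0415). No muscle or hepatocyte marker passed, and the part of these shifts in the differences of the 84 genes was not tested.

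Ndufs5, the gene that fell, is an accessory subunit at the foot of the membrane arm. It read 9.97 and 10.01 in wild-type, 9.41 and 9.52 in SHP-/-, against 10.20 and 10.43 in OB-/- livers and 9.73 and 9.55 in OB-/-/SHP-/-. All 4 arrays without SHP lay below all 4 with it. It fell by 0.67 ± 0.14 in OB-/-/SHP-/- relative to OB-/- (1.59-fold, adjusted p = 0.0336). The call was lost without any 1 of the wild-type, OB-/- or OB-/-/SHP-/- arrays (adjusted p up to 0.338), and without both arrays in doubt (adjusted p = 0.103). A probe set named for Ndufs5 and its pseudogene Ndufs5-ps gave -0.71 ± 0.18 in the same comparison (adjusted p = 0.11).

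Near the threshold were Sdhd and Cox7a2. Sdhd read 11.12 and 11.17 in wild-type, 10.99 and 11.04 in SHP-/-, against 11.37 and 11.26 in OB-/- livers and 10.88 and 10.58 in OB-/-/SHP-/-, and its difference was -0.59 ± 0.14 (adjusted p = 0.0709). Cox7a2 read 12.15 and 12.11, 12.02 and 12.04, 12.40 and 12.35, and 11.98 and 11.67 in the same order, and its difference was -0.55 ± 0.14 (adjusted p = 0.092). In both genes the arrays without SHP lay below those with it, and OB-/-/SHP-/- replicate 2 was the lowest array. The rest of complex II was at -0.03 to -0.13.

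In complex III all 8 genes were lower in OB-/-/SHP-/- than in OB-/-, at -0.10 to -0.31 with a median of -0.22, and the arrays of 7 of 8 did not overlap (40% of all genes). None passed the test: Uqcr10 was at -0.31 ± 0.13 (adjusted p = 0.376) and Uqcrfs1, the Rieske iron-sulfur protein, at -0.30 ± 0.13 (adjusted p = 0.368). Against this direction, Cox6b2 was 1.54 ± 0.35 higher in OB-/-/SHP-/- than in OB-/- (2.91-fold), with an adjusted p of 0.0515. It passed without OB-/-/SHP-/- replicate 1 (2.23, adjusted p = 0.00144), without either SHP-/- array, and with eBayes with trend (adjusted p = 0.0238), but without OB-/-/SHP-/- replicate 2 it was 0.85 (adjusted p = 0.282).

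**Figure D4:**
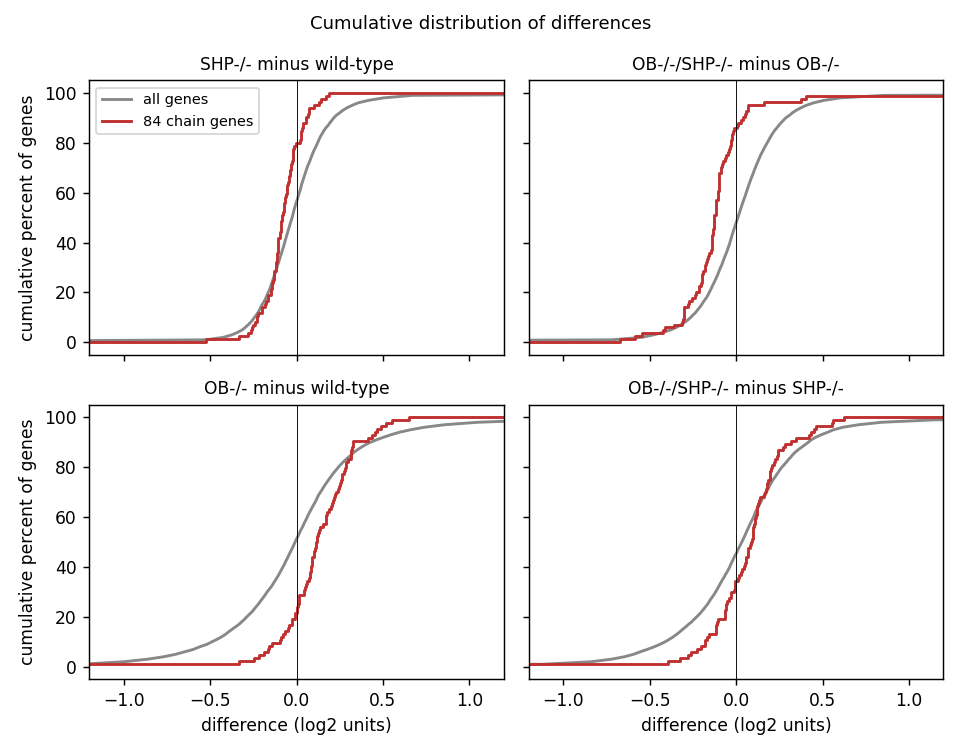
Curves give the cumulative percent of genes, for all 12393 genes in grey and the 84 genes in red, against the difference in log2 units, in 4 comparisons. The axis is cut at 1.2 either way, beyond which Cox6b2 lies in 3 of them. The red curve is to the left of the grey one at 0 in both SHP comparisons (67 and 72 of 84 genes lower) and to the right in both leptin comparisons (66 and 55 higher).

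Whether the difference made by SHP loss itself depended on leptin was tested as an interaction, the difference of both SHP comparisons. In limma 0 of the 84 genes passed (0.549% of all genes), with 1 higher and 3 lower at an unadjusted p below 0.05, against 4.53% and 3.74% of all genes. The largest was Cox6b2 at 1.68 ± 0.50 (adjusted p = 0.281), which passed without OB-/-/SHP-/- replicate 1 (2.37, adjusted p = 0.00941). Ndufaf7, a methyltransferase that helps complex I assembly, was at -0.59 ± 0.26 (adjusted p = 0.573), Sdhd at -0.45 ± 0.20 (adjusted p = 0.586), and Cox7a2 at -0.44 ± 0.20 (adjusted p = 0.603). Ndufaf4 at 0.39 ± 0.20 (adjusted p = 0.675) and Ndufa10 at -0.32 ± 0.18 (adjusted p = 0.735) followed. In complex III all 8 genes were below 0, with a median of -0.19. A rise or fall seen in one leptin state and not in the other is not shown to differ between them.

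Genes that control, assemble or supply the chain were counted by list. Among 16 factors of mitochondrial biogenesis, 4 fell and 0 rose in OB-/- against wild-type (25% called, against 16.9% of all genes in either direction). Ppargc1a, the coactivator PGC-1alpha, read 7.68 and 7.56 in wild-type, 7.37 and 6.98 in SHP-/-, against 6.40 and 6.35 in OB-/- livers and 6.98 and 6.88 in OB-/-/SHP-/-. OB-/- was lowest, wild-type was highest, and SHP-/- and OB-/-/SHP-/- shared a range. It fell by 1.25 ± 0.15 in OB-/- relative to wild-type (2.37-fold, adjusted p = 0.000327), while OB-/-/SHP-/- minus OB-/- was 0.56 ± 0.15 (adjusted p = 0.114). Over the 19 alternatives run, its OB-/- minus wild-type difference ranged from -1.305 to -0.715.

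Ppargc1b, its relative PGC-1beta, read 8.45 and 8.26, 7.83 and 7.36, 7.36 and 6.91, and 7.00 and 7.17 in the same order. Both wild-type arrays were the highest, and it fell by 1.22 ± 0.19 in OB-/- (adjusted p = 0.00159). Polg, the polymerase of mitochondrial DNA, fell by 0.83 ± 0.14 in OB-/- relative to wild-type (adjusted p = 0.00238), and its difference in OB-/-/SHP-/- relative to SHP-/- was -0.98 ± 0.14 (adjusted p = 0.00155). In the OB-/- livers 66 of the 84 chain genes read higher than in wild-type (78.6%, against 48.8% of all genes), 6 of them past the test. Any link between the falls of Ppargc1a, Ppargc1b and Polg and the levels of the chain genes was not tested.

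Of 24 assembly factors of complexes II to V, 3 rose and 1 fell in OB-/- against wild-type (16.7%, the share over all genes being 16.9%). Coa6, which delivers copper to complex IV, read 9.11 and 8.75 in wild-type, 9.03 and 9.09 in SHP-/-, against 10.06 and 9.86 in OB-/- livers and 10.07 and 9.64 in OB-/-/SHP-/-. Arrays without leptin were the 4 highest. Coa6 rose by 1.03 ± 0.18 (adjusted p = 0.00265), Tmem70, an assembly factor of the ATP synthase, by 0.74 ± 0.16 (adjusted p = 0.00885), and Coa7 by 0.45 ± 0.13 (adjusted p = 0.0343). In OB-/-/SHP-/- minus SHP-/- Coa6 was at 0.79 ± 0.18 (adjusted p = 0.0174), Tmem70 at 0.57 ± 0.16 (adjusted p = 0.0442) and Bcs1l, which inserts the Rieske protein, at -0.63 ± 0.17 (adjusted p = 0.0399). This call of Coa6 was kept in 14 of 19 alternatives and lost without SHP-/- replicate 1 or 2 (adjusted p = 0.0643 and 0.0526), without OB-/-/SHP-/- replicate 1 (0.58, adjusted p = 0.0804), with only the 4 arrays compared (adjusted p = 0.0516) and without both arrays in doubt (adjusted p = 0.1).

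Of 13 genes for electron carriers and coenzyme Q synthesis, 2 rose and 1 fell in OB-/- against wild-type (23.1%, against 16.9% of all genes). Cycs, cytochrome c, rose by 0.54 ± 0.14 (adjusted p = 0.0266), Coq7 rose by 0.74 ± 0.22 (adjusted p = 0.0408) and Coq5 fell by 0.57 ± 0.15 (adjusted p = 0.0211). The tricarboxylic acid cycle and pyruvate dehydrogenase had 4 rises and 1 fall among 16 (31.2%). Suclg2, the GTP-forming subunit of succinyl-CoA ligase, rose by 1.09 ± 0.14 (adjusted p = 0.000486), and Fh1, fumarase, fell by 0.64 ± 0.14 (adjusted p = 0.0101).

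Dlat, the acetyl-transferring core of pyruvate dehydrogenase, read 7.92 and 7.71 in wild-type, 7.73 and 7.69 in SHP-/-, against 8.54 and 8.58 in OB-/- livers and 7.65 and 7.73 in OB-/-/SHP-/-. OB-/- stood alone above the other 3 genotypes. It rose by 0.74 ± 0.13 in OB-/- relative to wild-type (adjusted p = 0.00347), and OB-/-/SHP-/- minus OB-/- was -0.87 ± 0.13 (adjusted p = 0.0059). The call of this fall was lost with the mean of probe sets, without either OB-/- array and without both arrays in doubt. Its difference ranged from -0.904 to -0.686 over the 19 alternatives run. Pdhb, a subunit of the same enzyme, fell by 0.71 ± 0.14 in OB-/-/SHP-/- relative to OB-/- (adjusted p = 0.0227), which was lost without either OB-/- array or OB-/-/SHP-/- replicate 2 (adjusted p up to 0.161).

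Mitochondrial ribosomal proteins were split, with 2 of 72 up, 5 down and 36 above 0 in OB-/- against wild-type (9.72% called, below the 16.9% of all genes), and Mrpl47 fell by 0.76 ± 0.14 (adjusted p = 0.00376). Of 30 cytosolic ribosomal protein genes 28 were lower in OB-/- and 4 fell (13.3%), with a median difference of -0.27, among them Rps6 at -0.82 ± 0.22 (adjusted p = 0.0254). Of 8 carriers of adenine nucleotides and uncoupling proteins, 1 rose (12.5%), Slc25a4, the muscle and heart form of the ATP/ADP carrier, by 0.58 ± 0.17 (adjusted p = 0.04). Of the genes encoded in mitochondrial DNA, ND5 was measured, at 12.20 to 12.74 on all arrays, and passed in no comparison.

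**Figure D5:**
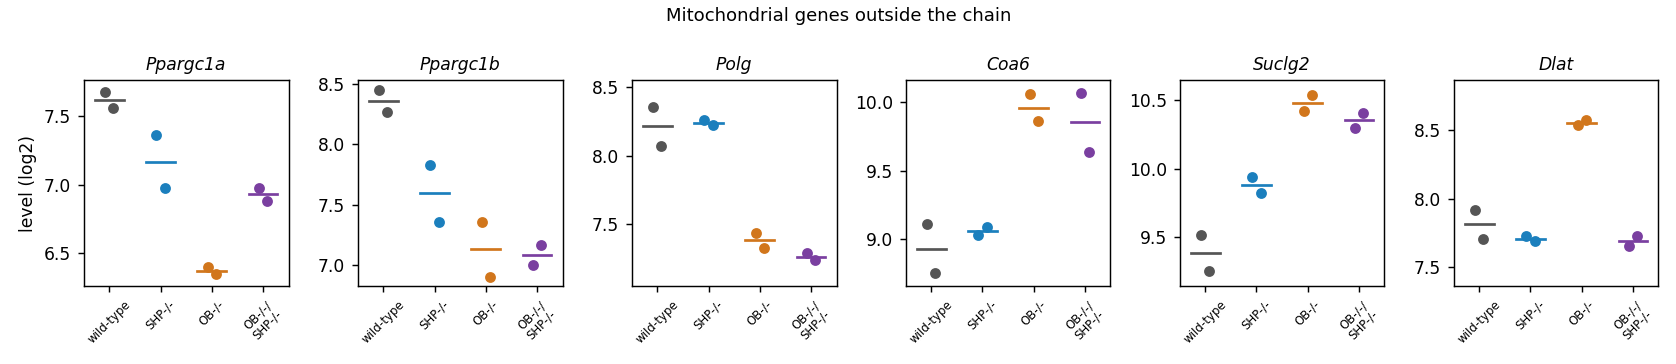
Points are log2 levels on single arrays and bars genotype means, for 6 mitochondrial genes outside the chain. Vertical axes do not start at 0 and differ between panels. Ppargc1a, Ppargc1b and Polg are lower in OB-/- than in wild-type, by 1.25, 1.22 and 0.83, while Coa6, Suclg2 and Dlat are higher, by 1.03, 1.09 and 0.74.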

How the data were processed

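Total liver RNA was isolated with Tri-reagent, labelled with biotin and hybridised to Affymetrix arrays, per the labels' protocols. The authors deposited 1 value per probe set and array, which were read as log2 expression values. The submitters' processing notes name R 2.15.0. How background was removed and probes were summarised, and which logarithm was taken, is not given in the sources used here. All values ran from 2.20 to 14.19, and base 2 was assumed from that. Array medians lay at 5.45 to 5.56, so the deposited values entered the tests unchanged, unfiltered and without a pseudocount. Of 22690 probe sets, 64 were controls, 20380 named 1 gene in the platform annotation, 691 several and 1555 none. The gene IDs of the 84 matched RefSeq (GRCm38.p6), with 0 changed symbols. Arrays hold no count of molecules, and their number limits the precision.

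Genotype and replicate number came from the sample titles. Genotype means were fitted in 1 linear model over 8 arrays and every gene with limma 3.58.1 in R 4.3.3 (the data.table package, version 1.17.8), with 4 residual and 7.16 prior degrees of freedom, and the procedure was tested on simulated data. Tests were two-sided, with Benjamini-Hochberg adjustment of each comparison's p-values across the 12393 genes. Same-numbered arrays of different genotypes deviated together with correlations of -0.11 to 0.20, so the numbers were taken as names and not as pairs.

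The genes described and the lists of other genes (8 of mitochondrial and ribosomal genes, 6 of cell type markers) were chosen with earlier results of these data known. Genes were named by rule: those past the threshold without overlap of arrays (up to 6 each way per comparison), up to 6 by smallest adjusted p for the interaction, up to 4 per complex by F-test over the genotypes, all 4 Sdh genes, the isoform groups of complex IV and of subunit c, genes whose probe sets disagree by over 1, and up to 3 per other list. Beyond the rule, Ndufv1, Ndufv2, Ndufs1, Ndufs3, Ndufs7, Uqcrc2, Uqcrfs1, Atp5b and Cox7c were named after their values were seen. As alternatives, array medians were equalised or arrays quantile-normalised, probe sets under the 40th percentile of means (4.83) were dropped, eBayes was run with a trend or robustly, probe sets of a gene were averaged, tested singly or limited to those without an x_at or s_at suffix, the fit was limited to the 4 arrays of a comparison or given the replicate number as block, and arrays were left out singly or both in doubt.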

Additional observations from a re-analysis of the deposited data

Results flagged for a closer look

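A probe set that names both Ndufs5 and its pseudogene Ndufs5-ps, and so stayed outside the comparisons, was 0.72 ± 0.18 (SE) higher in OB-/- than in wild-type (adjusted p = 0.022 in limma over all probe sets). The Ndufs5 probe set used in the report gave 0.32 ± 0.14 in the same comparison (adjusted p = 0.154).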

How the results depend on the processing

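Cox6b2 in both leptin comparisons passed in all alternatives run, and the 84 genes had 0 calls in SHP-/- minus wild-type in all of them. In OB-/-/SHP-/- minus OB-/-, rises numbered 1 (Cox6b2) with the filter on dim genes, with trended eBayes, with only the 4 arrays compared and with the replicate number as a block, and falls numbered 2 with quantile normalisation, 3 with trended eBayes, 0 with only the 4 arrays compared and 0 without both arrays in doubt. In OB-/- minus wild-type, 3 rose and 2 fell with the mean of probe sets, 10 probe sets rose and 2 fell with every probe set tested, and 0 rose without both arrays in doubt. The median over the 84 genes there was 0.085 with quantile normalisation and 0.075 with equal array medians. Equal array medians move every gene's difference in a comparison by the same amount, so the gap to the median of all genes is unchanged. In OB-/-/SHP-/- minus SHP-/-, 2 rose with the mean of probe sets, 2 probe sets fell with every probe set tested, 0 rose with only the 4 arrays compared and 0 without both arrays in doubt, and the median was 0.05 with equal array medians. The replicate block also ended the calls of Ndufa7 in OB-/- minus wild-type (adjusted p = 0.0584) and Ndufb8 in OB-/-/SHP-/- minus SHP-/- (adjusted p = 0.0548).

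With the mean of probe sets, Ndufab1 was at -0.105 in OB-/- minus wild-type, and Ndufaf4 was at -0.065 in OB-/-/SHP-/- minus SHP-/- and at -0.026 in the interaction. Without x_at and s_at probe sets Ndufab1 was at -0.364 in OB-/- minus wild-type and -0.028 in OB-/-/SHP-/- minus SHP-/-. Where single arrays were dropped, the remaining array of that genotype is assumed to vary like the others. Rises then numbered 0 to 5 in OB-/- minus wild-type, 0 to 4 in OB-/-/SHP-/- minus SHP-/-, 0 to 1 in OB-/-/SHP-/- minus OB-/- and 0 to 1 in the interaction, and falls 0 to 1 in OB-/-/SHP-/- minus OB-/- and 1 to 2 in OB-/-/SHP-/- minus SHP-/-. The medians ranged from -0.117 to -0.036 in SHP-/- minus wild-type, -0.146 to -0.106 in OB-/-/SHP-/- minus OB-/-, 0.109 to 0.146 in OB-/- minus wild-type, 0.038 to 0.095 in OB-/-/SHP-/- minus SHP-/-, and -0.095 to -0.019 in the interaction. The cause of these shifts was not tested. With only 4 arrays the interaction has no value.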
